A study of Mus musculus with 17 samples.

Results

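The interferon-gamma GTPases of the mouse fall into 2 families, the guanylate-binding proteins (GBP) and the immunity-related GTPases (IRG). In all, 10 genes of these families are described here in the colon, namely Gbp2, Gbp3, Gbp4, Gbp6, Gbp7, Iigp1, Igtp, Irgm1, Irgm2 and Tgtp1. They were chosen by name, and each was read from the array probe of that gene name with the highest mean log2 value in the table of the submitters. Of the 10 genes, 9 have such a probe, among 37325 gene or transcript names on the array, of which 25029 have a probe that was tested. Tgtp1 has none. The probe named Tgtp2 is annotated to transcripts of both Tgtp1 and Tgtp2, which are near copies of each other, so it is given as Tgtp1/Tgtp2, is uncertain as to the gene and is not counted among the 9.

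The arrays measured RNA of the whole colon of male C57Bl6/J mice in 4 groups, with 4 arrays each for WT CONT, WT PCN and Pxr-/- PCN and 5 for Pxr-/- CONT. Pxr, encoded by Nr1i2, is a nuclear receptor that senses foreign compounds and bile acids, and PCN (pregnenolone 16α-carbonitrile) is its rodent agonist. PCN mice received 100 mg/kg in corn oil by intraperitoneal injection on each of 4 days, and CONT mice corn oil alone. All had free access to the diet and were killed 6 h after the last injection, at zeitgeber time 6. WT mice were bought at 6 weeks of age and acclimatized during 2 weeks, whereas Pxr-/- mice came from a colony kept in-house for 10 years, so genotype and colony cannot be told apart. The age of the Pxr-/- mice is not given in the sources used here. The study allocated 6 mice to each group, and nothing in the labels ties an array to a mouse, so p-values measure the spread between arrays.

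By the mm9 positions of their probes, Gbp2 (chr3:142300719-142300778), Gbp3 (chr3:142236072-142236131) and Gbp7 (chr3:142209379-142209438) lie near one another on chromosome 3, and Gbp4 (chr5:105544852-105544911) and Gbp6 (chr5:105700081-105700140) on chromosome 5. Igtp (chr11:58020927-58020986) and Irgm2 (chr11:58036064-58036123) are neighbours on chromosome 11, where Irgm1 (chr11:48679069-48679128) and the Tgtp2 probe (chr11:48871837-48871896) lie apart from them.

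In the cell, interferon-gamma binds its receptor, the kinases JAK1 and JAK2 pass the signal on, and the gamma-activated site (GAS) of target genes is bound, while IRF1, IRF9 and other factors bind the interferon-stimulated response element (ISRE), which type I interferons also use. The GTPases induced in this way coat the vacuoles in which bacteria and parasites live. Igtp, Irgm1 and Irgm2 are regulators that hold the effector GTPases Iigp1 and Tgtp1 inactive on the membranes of the host, and GBP proteins open microbes to inflammasome sensing. In the gut, the interferon comes mainly from T cells, natural killer (NK) cells and innate lymphoid cells, and the epithelium responds to it.

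Promoters were compared because most of these genes varied together from array to array, as given below. From the RefSeq promoter table (GRCm38.p6), promoters of 7 of the 10 genes were read, 8 promoters in all, since Gbp3 has 2 starts. None was read for Gbp4, Gbp6 and Iigp1. The 250 bases before the start are printed 5′ to 3′ for Igtp (chr11:58199306-58199555, plus strand), Irgm2 (chr11:58214727-58214976, plus strand), Tgtp1 (chr11:48992247-48992496, minus strand), Irgm1 (chr11:48871421-48871670, minus strand), Gbp7 (chr3:142530086-142530335, plus strand) and Gbp2 (chr3:142620413-142620662, plus strand). The first 3 share an arrangement of both motifs, Irgm1 and Gbp7 show the other arrangements and Gbp2 is the gene whose mean was not higher in Pxr-/- CONT. Capitals mark matches, on either strand, to TTCNNNGAA (GAS) or GAAANNGAA (the core of the ISRE).
Igtp: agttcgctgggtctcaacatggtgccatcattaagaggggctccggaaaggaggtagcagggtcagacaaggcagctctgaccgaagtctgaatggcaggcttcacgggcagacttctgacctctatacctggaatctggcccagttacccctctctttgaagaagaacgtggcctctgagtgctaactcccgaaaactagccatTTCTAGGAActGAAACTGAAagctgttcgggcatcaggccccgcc
Irgm2: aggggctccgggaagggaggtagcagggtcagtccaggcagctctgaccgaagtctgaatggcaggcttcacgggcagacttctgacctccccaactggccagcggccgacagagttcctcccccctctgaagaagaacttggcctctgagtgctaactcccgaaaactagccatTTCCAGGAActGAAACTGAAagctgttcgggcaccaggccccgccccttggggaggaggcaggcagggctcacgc
Tgtp1: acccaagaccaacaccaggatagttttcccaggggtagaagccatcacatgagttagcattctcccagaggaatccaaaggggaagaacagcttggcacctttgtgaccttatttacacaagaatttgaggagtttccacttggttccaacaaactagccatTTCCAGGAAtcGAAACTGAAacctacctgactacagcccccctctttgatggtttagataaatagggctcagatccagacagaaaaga
Irgm1: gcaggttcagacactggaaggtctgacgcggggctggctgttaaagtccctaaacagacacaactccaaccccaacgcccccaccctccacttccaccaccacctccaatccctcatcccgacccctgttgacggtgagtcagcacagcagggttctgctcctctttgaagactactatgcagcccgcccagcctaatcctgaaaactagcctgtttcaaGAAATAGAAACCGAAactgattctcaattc
Gbp7: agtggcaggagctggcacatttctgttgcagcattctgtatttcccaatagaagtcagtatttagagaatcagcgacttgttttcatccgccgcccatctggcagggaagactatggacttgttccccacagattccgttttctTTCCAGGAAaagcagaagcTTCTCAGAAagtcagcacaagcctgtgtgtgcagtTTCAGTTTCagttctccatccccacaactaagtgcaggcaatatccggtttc
Gbp2: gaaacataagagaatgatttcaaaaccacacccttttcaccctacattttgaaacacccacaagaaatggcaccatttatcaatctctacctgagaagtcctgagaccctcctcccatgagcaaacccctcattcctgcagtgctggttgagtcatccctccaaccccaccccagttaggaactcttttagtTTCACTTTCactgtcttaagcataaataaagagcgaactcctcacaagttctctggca

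The ISRE core was found in 7 of the 8 promoters and the GAS in 4, against 7.13% and 7.02% of the 32851 promoters in the table. The promoter without a match is that of the second start of Gbp3. In Igtp the GAS lies 45 to 37 bases before the start and the ISRE core 34 to 26 bases before it, so that 2 bases separate them. The same spacing occurs in Irgm2, at 75 to 67 and 64 to 56 bases, and in Tgtp1, at 88 to 80 and 77 to 69 bases. Among all promoters, 7 (0.0213%) hold a GAS followed at 2 bases by an ISRE core, and the others are those of Tgtp2, Gm12185, Olfr382 and LOC115488470. Igtp and Irgm2 share an identical run of 55 bases, and Irgm2 and Tgtp1 share a run of 20 bases that holds the whole GAS. Igtp and Tgtp1 share a run of 14 bases. The motifs of Igtp, Irgm2 and Tgtp1 are therefore not independent. Gbp7 holds a pair of GAS matches, from 106 and from 87 bases before the start, and an ISRE core from 52 bases on the other strand. Irgm1 holds 2 ISRE cores that overlap, from 30 and from 24 bases before the start, and no GAS, and Gbp2 holds a single ISRE core from 58 bases and no GAS. A match is a stretch of letters and was not tested as a binding site.

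A set of 4 arrays stood apart. Over 38646 probes, WT PCN 4 and Pxr-/- PCN 2 differed with a standard deviation of 0.172 on the log2 scale, and WT PCN 3 and Pxr-/- CONT 2 with 0.198, whereas the other 134 pairs of arrays lay between 0.297 and 0.616. The GTPase genes differed by at most 0.0996 within the first pair and 0.155 within the second. The probe of Nr1i2 was still read on arrays labelled Pxr-/- and so checks the labels only in part. For it, the arrays labelled WT PCN 3 and 4 were at log2 11.10 and 11.15, and the other 6 WT arrays at 11.85 to 12.44. The arrays labelled Pxr-/- were at 10.39 to 11.93, with only Pxr-/- PCN 3, at 11.93, in the range of those 6 WT arrays. Because of the near-identical pairs, results of the GTPase genes are given with all 17 arrays and with the 13 that remain without those 4. The 13 are 6 WT and 7 Pxr-/- arrays, Pxr-/- PCN 3 included. The share of probes well above background ranged from 61.0% to 69.7% by array, no spot was saturated, and every chosen probe of the 9 genes and of Tgtp1/Tgtp2 was well above the background on all 17 arrays. Colonic epithelial genes (9 of 9 on their list measured) had a mean log2 signal of 14.96 to 15.58 on every array. The 8 pancreatic genes had a mean of 17.44 on WT CONT 4, 14.96 on WT PCN 3, 14.91 on Pxr-/- CONT 2 and 10.31 on WT PCN 1, and of 5.40 to 5.81 on the other 13 arrays.

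Without PCN, 8 of the 9 GTPase genes had a higher mean in Pxr-/- than in WT colon and none passed the test. All values that follow are log2 signals of quantile-normalized arrays, and a difference is Pxr-/- minus WT from the limma model with the wash bath. The median log2 difference of the 9 genes was 0.78, from -0.19 for Gbp2 to 1.17 for Iigp1, while the median of all 38703 probes was 0.01. With the call set at FDR 0.05 or less together with more than 1.5-fold, 0 of the 9 genes and 0 of all probes (0%) were called, and the smallest adjusted p of the 9 was 0.304. Before adjustment, 5 of the 9 were higher with p under 0.05 (6.17% of all probes), and 6 were higher by over 1.5-fold (1.28% of probes). By the exact two-sided permutation test on the arrays, whose smallest possible p is 0.00794, 6 were higher with p under 0.05 (5.94% of probes). No gene of the 9 had every Pxr-/- CONT array above every WT CONT array (2.38% of probes), and Pxr-/- CONT 5 lay within the range of WT CONT for 8 of them and below it for Gbp2.

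**Figure D1:**
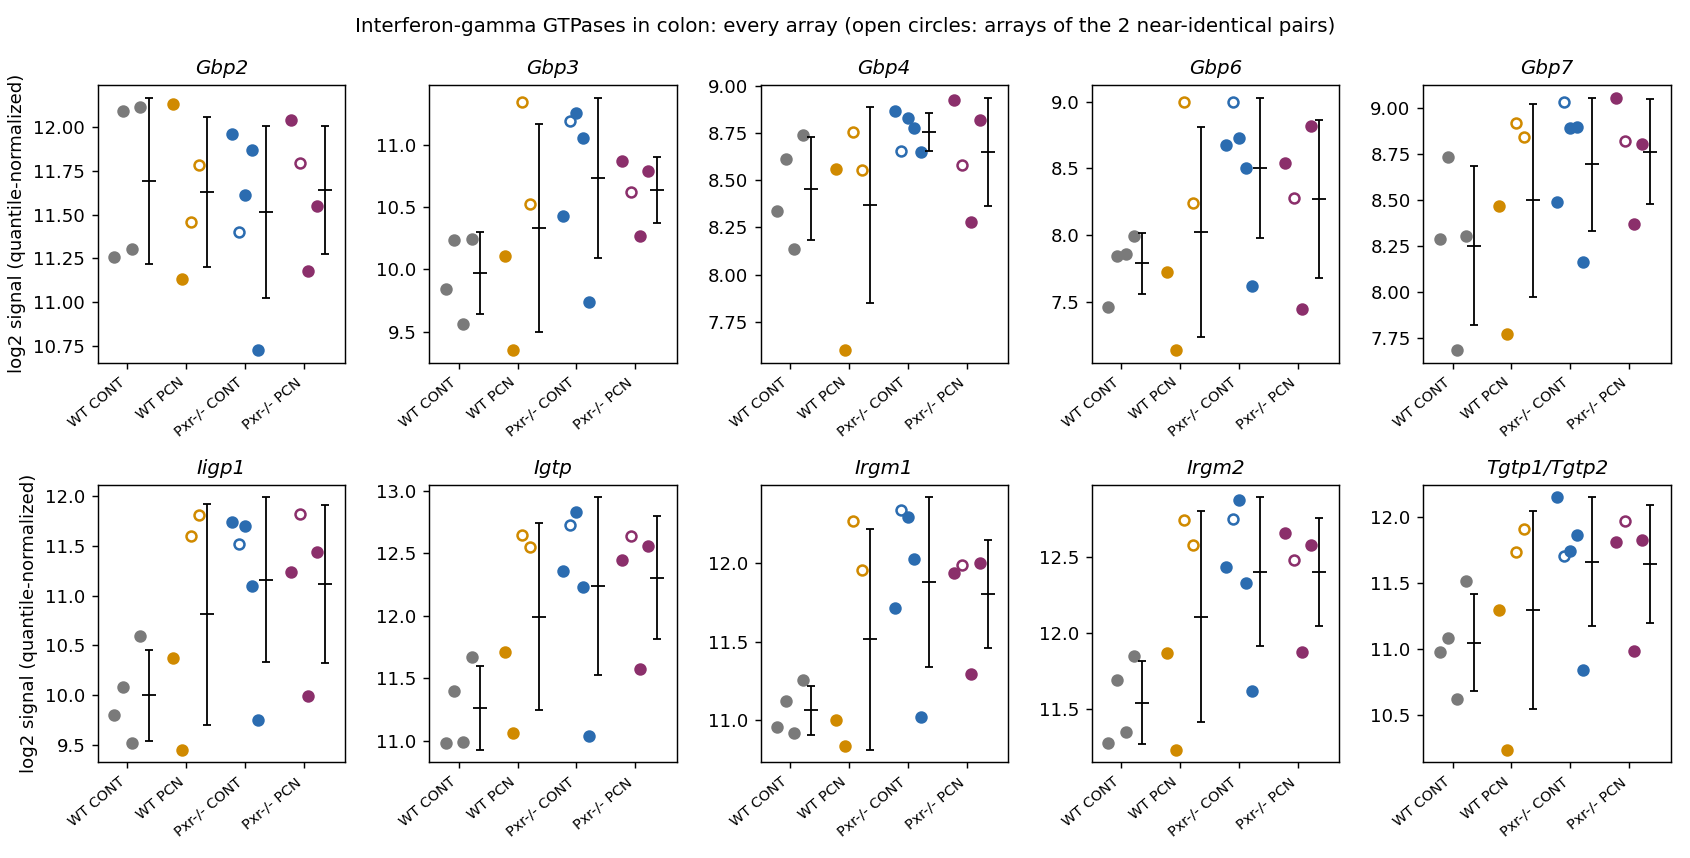
Log2 signal (vertical axes, quantile-normalized, a separate scale for each gene) of the 9 GTPase genes and of the shared Tgtp1/Tgtp2 probe on each array of the 4 groups, with the mean and SD beside the points. Open circles are the 4 arrays of the near-identical pairs. WT PCN 3 and 4, both open, sit above WT PCN 1 and 2 for Iigp1, Igtp, Irgm1 and Irgm2, and the lowest array of Pxr-/- CONT is array 5 for Iigp1, at 9.75.

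Among the regulators, Igtp was at 10.98, 11.40, 10.99 and 11.67 on WT CONT arrays 2 to 5. On Pxr-/- CONT arrays 1 to 5 it was at 12.36, 12.72, 12.83, 12.23 and 11.04. Of the Pxr-/- arrays 4 were above all WT arrays and array 5 fell among them. The log2 difference was 0.98 ± 0.39 (SE), a 1.98-fold change (95% interval 0.16 to 1.81, adjusted p = 0.336). Its means were 11.26 ± 0.34 (SD, n = 4) and 12.24 ± 0.71 (SD, n = 5).

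Irgm2 was at 11.28, 11.69, 11.35 and 11.85 on WT CONT arrays 2 to 5 and at 12.43, 12.75, 12.87, 12.33 and 11.62 on Pxr-/- CONT arrays 1 to 5. Irgm1, the regulator known for its role in autophagy and resistance to mycobacteria, was at 10.95, 11.12, 10.92 and 11.25, and at 11.72, 12.34, 12.29, 12.03 and 11.02. For both, the groups overlapped through Pxr-/- CONT 5 alone. The log2 difference was 0.86 ± 0.31 (SE) for Irgm2 and 0.83 ± 0.31 (SE) for Irgm1, with adjusted p = 0.304 and 0.313, and exact permutation p = 0.0317 and 0.0397. The other 3 probes of Irgm1 differed by 0.82, 0.69 and 0.51 in the same direction and correlated with the chosen probe over 17 arrays at r = 0.98, 0.99 and 0.73.

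Among the effectors, Iigp1 had the largest difference of the 9 in the model with the wash bath, and a difference of -0.01 with the slide as a fixed block. It was at 9.80, 10.08, 9.53 and 10.59 on WT CONT arrays 2 to 5 and at 11.73, 11.52, 11.69, 11.10 and 9.75 on Pxr-/- CONT arrays 1 to 5. Again array 5 was the only Pxr-/- CONT array in the range of WT. The log2 difference was 1.17 ± 0.53 (SE), a 2.24-fold change, with adjusted p = 0.378 and exact permutation p = 0.0476, and the second probe of Iigp1 differed by 0.62. The Tgtp1/Tgtp2 probe was at 10.97, 11.08, 10.62 and 11.51 in WT CONT and at 12.15, 11.71, 11.74, 11.86 and 10.84 in Pxr-/- CONT. Its log2 difference was 0.61 ± 0.34 (SE), with adjusted p = 0.465.

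Among the GBP genes, which encode larger GTPases that target the membranes of bacteria and vacuoles, Gbp3 was at 9.84, 10.24, 9.56 and 10.24 in WT CONT and at 10.43, 11.19, 11.25, 11.05 and 9.74 in Pxr-/- CONT. Gbp6 was at 7.46, 7.85, 7.86 and 7.99 and at 8.68, 9.0, 8.73, 8.50 and 7.62. Their log2 differences were 0.78 ± 0.36 and 0.70 ± 0.36 (SE), with adjusted p = 0.385 and 0.430. Gbp7 differed by 0.46 ± 0.26 (SE) with exact permutation p = 0.119. Gbp4 was at 8.33, 8.61, 8.14 and 8.74 in WT CONT and, in a narrow range, at 8.86, 8.65, 8.83, 8.77 and 8.65 in Pxr-/- CONT. Its log2 difference of 0.29 ± 0.20 (SE) was a 1.22-fold change, with exact permutation p = 0.0397 and adjusted p = 0.563.

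Gbp2 was the only gene of the 9 with a lower mean in Pxr-/- CONT. It was at 11.26, 12.09, 11.30 and 12.12 on WT CONT arrays 2 to 5 and at 11.96, 11.40, 11.62, 11.87 and 10.73 on Pxr-/- CONT arrays 1 to 5, and its log2 difference was -0.19 ± 0.29 (SE) with a 95% interval of -0.80 to 0.42 and adjusted p = 0.798. The WT arrays of Gbp2 formed a low pair (2 and 4) and a high pair (3 and 5), and its 4 group means lay between 11.51 and 11.69.

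Without the 4 near-identical arrays, the comparison of Pxr-/- CONT with WT CONT rested on 4 arrays in each group and gave a median log2 difference of 0.65. It again had 0 of 9 genes called (0% of probes) and 4 higher with unadjusted p under 0.05 (4.49% of probes), namely Irgm2, Irgm1, Igtp and Iigp1. Irgm2 differed by 0.77 ± 0.28, Irgm1 by 0.70 ± 0.25, Igtp by 0.85 ± 0.37 and Iigp1 by 1.07 ± 0.47 (SE), and the smallest adjusted p was 0.388. No gene was without overlap (3% of probes), with Pxr-/- CONT 5 again the low array. Within wash bath 1, with 2 arrays against 2, all 9 genes were higher in Pxr-/- CONT, with a median of 1.12, and within wash bath 2, with 3 against 2, 8 were, with a median of 0.57. With the slide as a fixed block in place of the bath, the median was 0.29.

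**Figure D2:**
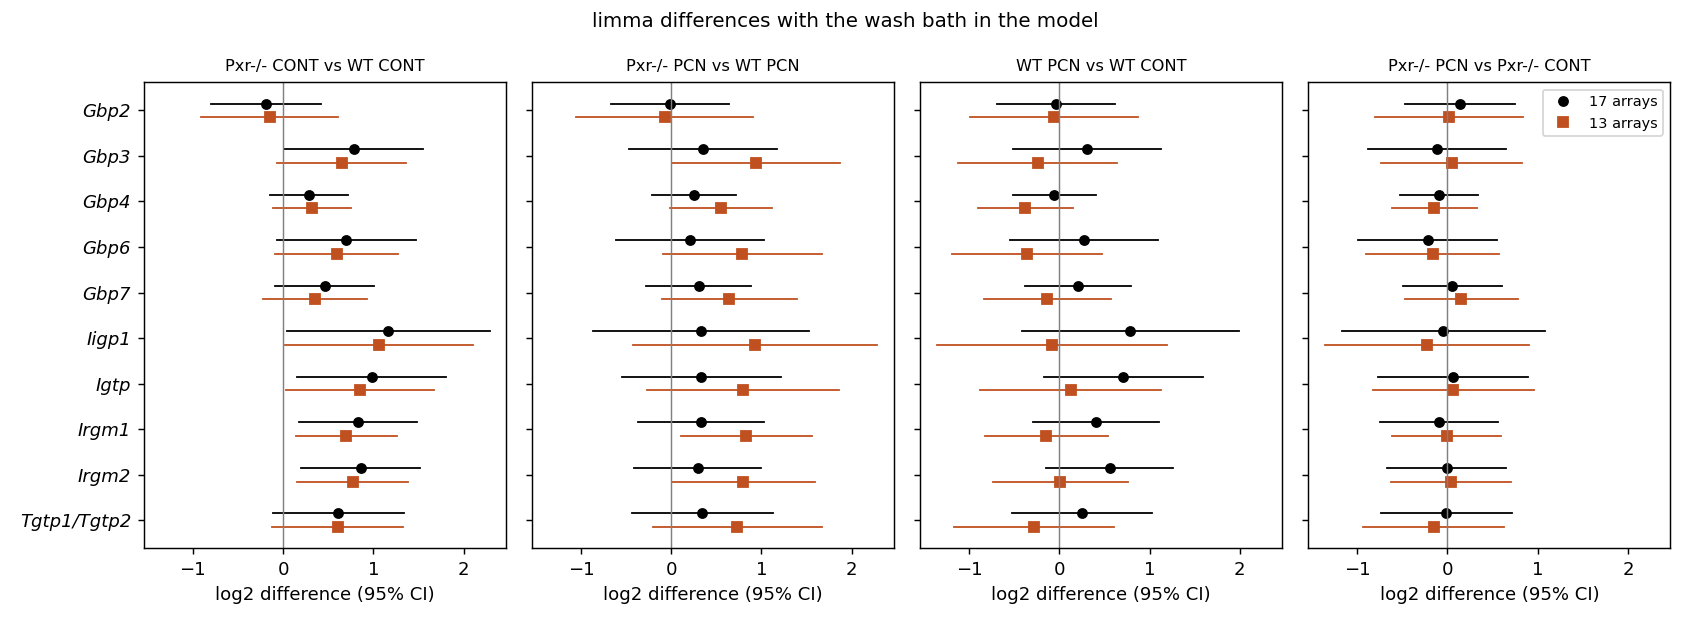
Log2 differences (horizontal axes) of each GTPase gene in 4 comparisons, with 95% intervals, from the limma model over all 17 arrays (black circles) and over the 13 arrays without the near-identical pairs (orange squares). The 8 genes besides Gbp2 lie right of 0 without PCN in both fits, and under PCN the comparison of genotypes moves right, to a median of 0.79, when the 4 arrays are left out.

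Under PCN, all 17 arrays gave a median log2 difference between Pxr-/- and WT of 0.30, from -0.01 for Gbp2 to 0.36 for Gbp3. Of the 9 genes 0 were called, as were 0% of probes, and the adjusted p was 0.9998 for each. No gene was without overlap between the groups (0.755% of probes). The 13 arrays gave a median of 0.79, with 0 of 9 called (0.0207% of probes), 3 higher with unadjusted p under 0.05 (3.2% of probes) and 7 higher by over 1.5-fold (1.22% of probes). Over all 17 arrays, the median within wash bath 1, which holds WT PCN 3 and 4 and Pxr-/- PCN 2, was 0.02, with 5 of 9 genes higher. Within wash bath 2, with a single WT PCN array, it was 0.75, with 8 of 9 higher. The fit without the 4 arrays has 3 arrays labelled Pxr-/- PCN against 2 labelled WT PCN, for which the smallest possible exact permutation p is 0.1.

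The arrays left out were high ones. Iigp1 was at 10.37 and 9.46 on WT PCN 1 and 2 but at 11.60 and 11.81 on WT PCN 3 and 4, and at 11.23, 11.82, 9.99 and 11.43 on Pxr-/- PCN arrays 1 to 4. Irgm1 was at 10.84 on WT PCN 2, the lowest of its group, and at 12.27 and 11.96 on WT PCN 3 and 4, and at 11.94, 11.99, 11.29 and 12.00 in Pxr-/- PCN. Gbp3 was at 10.11, 9.35, 11.35 and 10.53 in WT PCN and at 10.87, 10.62, 10.27 and 10.79 in Pxr-/- PCN. With WT PCN 3 and 4 in place the groups overlapped for every gene. Without the 4 arrays, every Pxr-/- PCN array was above both WT PCN arrays for 3 genes, Gbp3, Irgm1 and Irgm2, where 9.72% of all probes were.

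PCN itself was followed by no called change of these genes in either genotype. In WT the median log2 difference of PCN and CONT was 0.31 over all arrays, with Iigp1 at 0.79 ± 0.56 and Igtp at 0.71 ± 0.41 (SE), and 0 of 9 genes called (0% of probes). It was -0.13 with WT PCN 1 and 2 alone, with 0 of 9 called (0.0491% of probes), and 7 of the 9 genes were then lower. With the near-identical arrays included, the median in WT was 0.47 within wash bath 1 and 0.27 within wash bath 2. Of the 3 WT PCN arrays in bath 1, only WT PCN 2 lies outside the near-identical pairs. Bath 2 holds a single WT PCN array. In Pxr-/- the median was -0.05, from -0.22 for Gbp6 to 0.14 for Gbp2, with 0 of 9 called (0.00517% of probes), and it was 0.02 over the 13 arrays with 0 of 9 called (0.0517% of probes). Over all arrays, all 9 genes were lower under PCN in Pxr-/- within wash bath 1 (median -0.42) and higher within wash bath 2 (median 0.35). Igtp showed this with -0.42 in bath 1 and 0.46 in bath 2, each with 2 or 3 arrays a group. The low array Pxr-/- PCN 3 (Igtp at 11.57) was in bath 1 and the low array Pxr-/- CONT 5 (Igtp at 11.04) in bath 2. The change of direction cannot be told apart from these single arrays.

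The difference of the PCN effects between genotypes had a median of -0.49 over all arrays and of 0.13 over the 13 arrays. No gene of the 9 was called in either (0% and 0.00258% of probes), and the smallest adjusted p was 0.857 over all arrays. For Iigp1 the interaction was -0.83 ± 0.76 (SE), and for Gbp2 it was 0.18 ± 0.42 (SE).

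Seen array by array, the genes varied together. The mean log2 signal of the 9 genes was 9.51 to 10.31 on the 6 WT arrays of the 13, and 10.74 or more on 5 of the 7 Pxr-/- arrays. The remaining pair, Pxr-/- CONT 5 at 9.81 and Pxr-/- PCN 3 at 10.03, lay in the range of WT. On Pxr-/- PCN 3, Nr1i2 was also in the range of these 6 WT arrays, at 11.93. The 4 near-identical arrays, WT labels included, were at 10.76 to 10.97. On WT PCN 3, 8 of the 9 genes were above the highest WT CONT array, on WT PCN 4, 7 were, on WT PCN 1, 3 were and on WT PCN 2, 0 were. In Pxr-/- CONT the counts were 7, 7, 8, 8 and 0 on arrays 1 to 5, and in Pxr-/- PCN 8, 7, 3 and 8 on arrays 1 to 4.

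**Figure D3:**
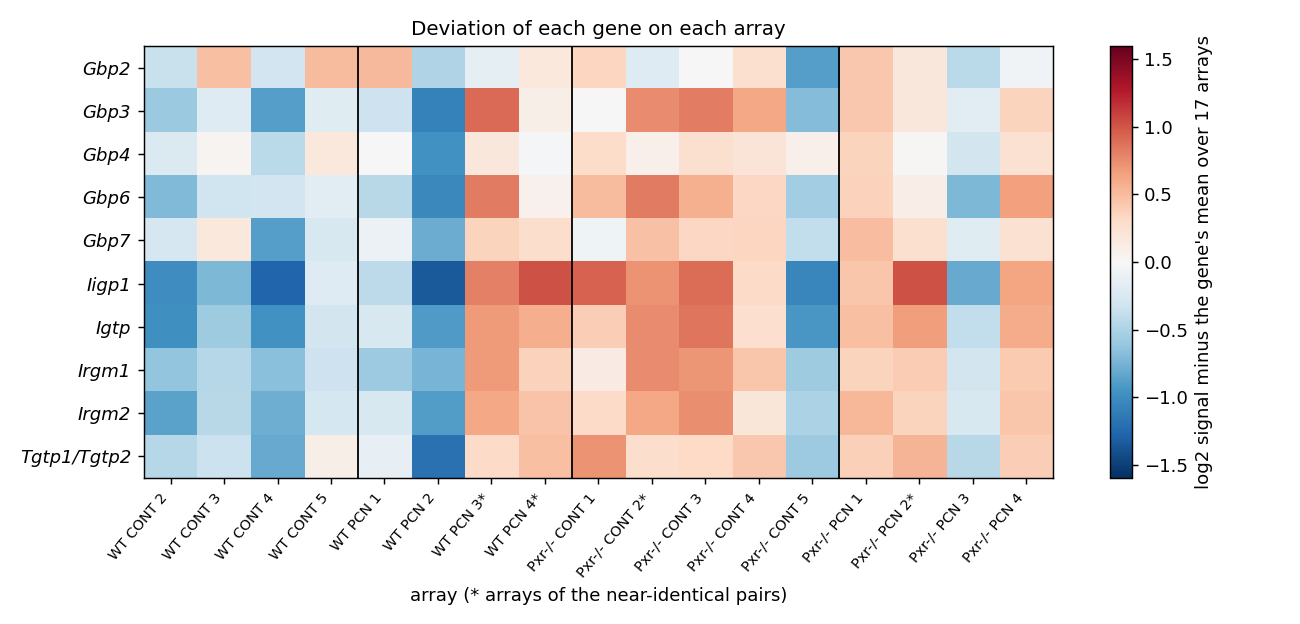
Deviation of the log2 signal of each GTPase gene (rows) from its own mean over 17 arrays, on each array (columns), blue for lower and red for higher. Columns are mostly alike from Gbp3 to Tgtp1/Tgtp2. Apart from Gbp4, these genes have Pxr-/- CONT 5 and Pxr-/- PCN 3 blue among the Pxr-/- arrays and WT PCN 3 and 4 red among the WT arrays. Gbp7 lies above its mean on WT CONT 3 and below it on Pxr-/- CONT 1, and on both arrays Iigp1 goes the other way. For Gbp4, Pxr-/- CONT 5 lies above the gene's mean and WT PCN 4 just below it.

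Over the 17 arrays, the 28 pairs among the 8 genes without Gbp2 had correlations of 0.65 to 0.98, with a median of 0.88, highest for Igtp and Irgm2. Gbp2 correlated with each of the 8 at 0.25 to 0.50. With the mean of the others Gbp2 correlated at 0.41 and Irgm2 at 0.97 over the 17 arrays, and at 0.53 and 0.96 over the 13. With group means taken out, Gbp2 correlated with the mean of the others at 0.60 over the 17 arrays, 0.81 without WT PCN 3 and 4 and 0.87 over the 13. Over the 13 arrays the same value was 0.76 for Gbp4, 0.80 for Gbp7, 0.88 for Gbp6 and 0.97 for Irgm2. These correlations are descriptions. The spread between arrays of one group was large for these genes. The pooled SD within groups was 0.32 for Gbp4 to 0.83 for Iigp1, where the median probe had 0.17, and 84.7% of probes varied less than Gbp4 and 98.3% less than Iigp1.

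Of 17038 genes ranked, those most like the mean of the 9 over the 17 arrays were Gm12250, an IRG gene (r = 0.98), Nlrc5, the transactivator of class I genes (0.97), Gm4951, another IRG gene (0.95), Tap1, the peptide transporter of class I presentation (0.94), Parp14 (0.94) and Tgtp2, which is the shared probe (0.93). With group means taken out, Psmb9, an immunoproteasome subunit, entered in place of Tgtp2 (0.93). Gm12250 was higher in Pxr-/- CONT by 1.35 ± 0.58 (SE), with adjusted p = 0.364, and its means were 7.82 ± 0.57 (SD, n = 4) in WT CONT and 9.16 ± 0.84 (SD, n = 5) in Pxr-/- CONT.

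The rest of the pathway was read from fixed lists, of which no gene was called in Pxr-/- CONT against WT CONT. Of the 16 other GBP and IRG genes tested, 14 were higher in the mean, with a median log2 difference of 0.20. Ifi47, an IRG gene, differed by 1.47 ± 0.63 (SE), Gm5431 by 0.72 ± 0.34 (SE), and Gbp5 by -0.17 ± 0.07 (SE), with adjusted p = 0.365, 0.392 and 0.365. This list holds the shared Tgtp2 probe as well. Gbp5 was at 9.52 ± 0.07 (SD, n = 4) in WT CONT and 9.34 ± 0.02 (SD, n = 5) in Pxr-/- CONT. Its lowest WT CONT array was at 9.41 and its highest Pxr-/- CONT array at 9.37, a narrow gap. The share of all probes separated in this direction was not computed.

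Of the 16 genes of interferon-gamma, its receptor and its signalling, 6 were higher and the median was -0.03. Ifng, the cytokine itself, was at 5.70 ± 0.26 (SD, n = 4) in WT CONT and 6.34 ± 0.66 (SD, n = 5) in Pxr-/- CONT, and was well above the background on 3 of 4 and 4 of 5 arrays. Its log2 difference was 0.67 ± 0.35 (SE), with adjusted p = 0.435. The receptor chains Ifngr1 and Ifngr2 differed by -0.21 ± 0.12 and -0.32 ± 0.11 (SE), the kinases Jak1 and Jak2 by -0.11 and -0.04, and the phosphatase Ptpn2 by -0.02. Irf9 differed by 0.62 ± 0.27, Nlrc5 by 1.01 ± 0.44 and Socs1, the feedback inhibitor of JAK kinases, by 0.65 ± 0.24 (SE), with adjusted p = 0.369, 0.365 and 0.317. All 3 were higher with unadjusted p under 0.05 (6.17% of all probes), and Ifngr2 was the only gene of the list lower at that level. Socs1 alone of the 3 had every Pxr-/- CONT array above every WT CONT array (2.38% of all probes), with its nearest arrays at 9.23 and 9.20. The factors Irf1, Irf2, Irf8, Ciita, Socs3 and Batf2 differed by -0.02, -0.26, -0.11, -0.21, -0.57 and 0.17. Irf9, Nlrc5 and Socs1 were thus higher in the mean beside the GTPases, and Irf1 was not.

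**Figure D4:**
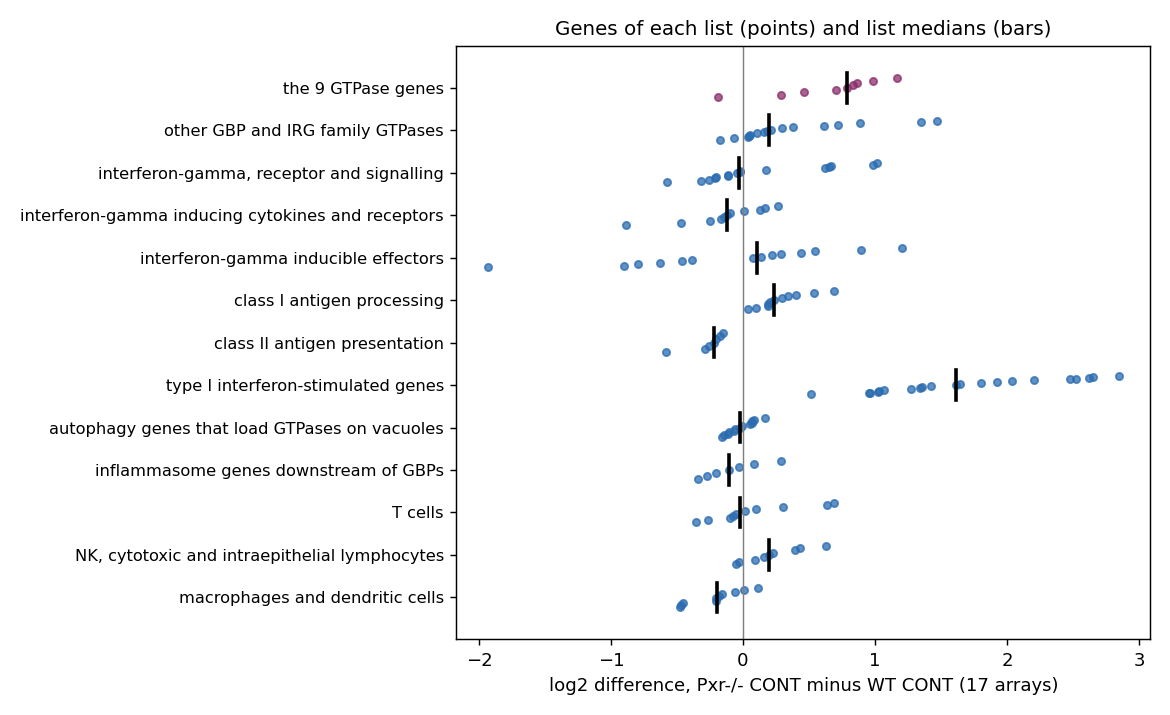
Log2 difference of Pxr-/- CONT and WT CONT over 17 arrays (horizontal axis) for each gene (points) of the lists named on the vertical axis, with the list median as a bar. The 9 GTPase genes have a median of 0.78, the type I interferon-stimulated genes 1.62 and the interferon-gamma signalling genes -0.03.

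Other targets of interferon-gamma did not share 1 direction. Of 14 inducible effectors, 8 were higher, with a median of 0.11. Zbp1, a nucleic acid sensor, differed by 1.21 ± 0.37 (SE), Wars by 0.28 ± 0.13, Cd274 (the checkpoint ligand PD-L1) by 0.44 ± 0.21, and the chemokines Cxcl9 and Cxcl10 by 0.54 ± 0.49 and 0.22 ± 0.31. Nos2, the inducible nitric oxide synthase, went the other way with -1.93 ± 0.41 (SE), at 9.89 ± 0.55 (SD, n = 4) in WT CONT and 7.90 ± 0.43 (SD, n = 5) in Pxr-/- CONT. Its adjusted p was 0.184, and its exact permutation p (2-sided) was 0.00794, the smallest that these arrays allow. Nos2 was named by its moderated t in this same comparison, so these p-values are not a separate test of it. All 11 class I processing genes measured were higher, with a median of 0.23, H2-K1 by 0.34 ± 0.18, Erap1 by 0.23 ± 0.13 and B2m by 0.54 ± 0.31 (SE), and all 7 class II genes were lower, with a median of -0.22. The 13 autophagy genes that load GTPases on vacuoles had a median of -0.02 and a highest difference of 0.17, for Trim21. The 7 inflammasome genes tested had a median of -0.10, with Nlrp3 at -0.34 ± 0.10 (SE). Of the 11 cytokines and receptors that drive interferon-gamma, 4 were higher and the median was -0.12.

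The 21 type I interferon-stimulated genes were all higher in Pxr-/- CONT, with a median log2 difference of 1.62, against 0.78 for the GTPase genes, and 0 of them called. Oas2 differed by 2.85 ± 0.81 and Usp18 by 2.65 ± 0.74 (SE). Their list mean separated the groups without PCN, at 9.69 to 10.05 in WT CONT and 10.51 to 12.39 in Pxr-/- CONT, where the GTPase genes overlapped. On Pxr-/- CONT 5 the type I list was at 10.51, above every WT CONT array, while the mean of the 9 GTPase genes was 9.81, inside the range of WT CONT.

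In a bulk sample, fewer cells of a type and less RNA per cell cannot be told apart. Markers of cells that make interferon-gamma were read on the same arrays. The 9 NK, cytotoxic and intraepithelial lymphocyte genes tested of 12 had a list mean of 7.45 to 8.03 in WT CONT, 7.31 to 8.34 in WT PCN, 7.61 to 8.22 in Pxr-/- CONT and 7.27 to 8.77 in Pxr-/- PCN, and it correlated with the mean of the GTPases at r = 0.77 over the 17 arrays. The 10 T cell genes were at 8.49 to 9.23, 8.20 to 9.10, 8.80 to 9.09 and 8.55 to 9.50 in the same order (r = 0.68). In Pxr-/- CONT against WT CONT, 7 of the 9 genes of the first list were higher and 2 lower, with a median of 0.20. Of the 10 T cell genes, 5 were higher and 5 lower, with a median of -0.02. Cd8b1 and Cd8a differed by 0.69 ± 0.32 and 0.64 ± 0.35 (SE), Cd3e by -0.35 ± 0.14 and Nkg7 by 0.63 ± 0.39. These markers were named by their moderated t in this same comparison. Ncr1, Eomes and Cd160 of the first list did not pass the filter on low signal. The part of these cells in the GTPase levels was not tested. Genes of other tissues were also read on some arrays. The pancreatic genes correlated with the mean of the GTPases at r = 0.02. The 5 liver genes tested had a mean of 12.09 on WT CONT 5, 9.55 on WT PCN 1 and 9.14 on WT PCN 2, and of 6.07 to 7.38 on the other 14 arrays (r = -0.39). The 5 adipocyte genes had a list mean of 9.02 to 10.31 in WT CONT and 8.55 to 9.73 in Pxr-/- CONT (r = -0.38). Of them, 4 were lower in Pxr-/- CONT, with a median of -0.80 and 0 called. The unadjusted p was under 0.05 for 3 of these 4, and for 12.7% of all probes in either direction. The part of these other tissues in the GTPase results was not tested.

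Over the 13 arrays, where the median of the 9 GTPase genes was 0.65, the list medians in Pxr-/- CONT against WT CONT were 1.31 for the type I genes, 0.20 for the other GBP and IRG genes and -0.01 for signalling. They were 0.10 for the effectors, 0.21 for class I, -0.18 for class II, 0.02 for autophagy (in place of -0.02), -0.09 for the inflammasome, 0.11 for NK and cytotoxic cells and -0.81 for adipocytes, with 0 genes called in any of these lists. Of the cytokines and receptors that drive interferon-gamma, 2 of 11 were then higher.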

How the data were processed

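RNA of the colon was labelled with Cy3 and hybridized to 1-colour Agilent arrays (17 arrays on 8 slides, 2 wash baths). The authors deposited scanner output (Agilent Feature Extraction 10.10.1.1 per the labels) with the mean, median and background intensity of each spot, a background-corrected intensity and flags. A second deposited file holds the authors' log2 values of 36695 probes, normalized between arrays, which the methods describe as corrected for the wash bath. The methods were written for liver arrays of the same design, and their CrossNorm step was not repeated here.

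The log2 of the median intensity of 59305 non-control spots, outliers left out, was quantile-normalized and averaged to 56605 probes. Tests covered the 38703 probes that Feature Extraction marked as well above background on 4 arrays or more. Probes were named by accession through the RefSeq table (32994 probes) or by the file. A model with the 4 groups and the bath was fitted with limma 3.58.1 (R 4.3.3) and tested on simulated data. A gene was called at a Benjamini-Hochberg FDR of at most 0.05 over all probes and a fold change over 1.5. Single genes were also compared by exact two-sided permutation of arrays, without the bath. The number of arrays limits the precision.

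The genes, the lists and the tests were chosen with earlier results of these data known. Named genes are the 10 GTPase genes, the genes of interferon-gamma signalling (1 of which is not reported here), at most 4 genes of each other list by the moderated t of Pxr-/- CONT against WT CONT together with Cxcl9, Cxcl10, Cd274, Gbp5 and Ifi47, and the 6 genes most correlated with the mean of the 9 over the arrays, before and after group means are taken out. Gm12185, Olfr382 and LOC115488470 are named from the promoter table alone, and Nr1i2 as the targeted gene. Alternatives were the authors' log2 values, other background corrections, filters, blocks, arrays and thresholds.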

Additional observations from a re-analysis of the deposited data

Results flagged for a closer look

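Within each group of 4 or 5 arrays, the highest or lowest array was set against the others by Dixon's ratio for the 9 GTPase genes, their mean, the shared Tgtp1/Tgtp2 probe and other genes of the pathway, 52 series of values in 208 groups. In 13 groups 1 array lay apart, and chance alone gives about 1 in 20. Pxr-/- PCN 3 was the low array for Irgm1 at log2 11.29, for Tgtp1/Tgtp2 at 10.98, for Gm12250 at 7.99, for Gm4951 at 7.06, for Nlrc5 at 8.72, for Cxcl9 at 7.07 and for the mean of the 9 genes at 10.03, whose other Pxr-/- PCN arrays lay between 10.78 and 10.86. Pxr-/- CONT 5 was the low array for the mean of the 9 genes at 9.81, with the others at 10.74 or more. WT PCN 2 was the low array for Gbp4 at 7.60, Batf2 at 11.95 and Cxcl9 at 6.53. WT PCN 4 was the high array for Ifng at 7.16, and WT CONT 5 for B2m at 15.32. These genes share arrays and are correlated, so the 13 are not independent.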

How the results depend on the processing

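No GTPase gene was called in any of the 5 comparisons under any of the alternatives, the authors' log2 values, the looser thresholds and each array left out included. The lowest adjusted p of any of the 9 genes for Pxr-/- CONT against WT CONT was 0.193, for Irgm2 without WT PCN 3 and 4. For this comparison the median log2 difference fell to 0.29 with the slide as a fixed block and was 0.65 to 1.01 with each array left out in turn, highest without Pxr-/- CONT 5. Under PCN, the median difference between genotypes was 0.79 without the 4 near-identical arrays and 0.85 without WT PCN 3 and 4 only, and 0.02 to 0.53 with each array left out. The interaction had a median of 0.13 without the 4 arrays and of 0.14 without WT PCN 3 and 4 only, in place of -0.49, and of -0.77 to -0.16 with each array left out. The PCN effect had medians of 0.09 to 0.64 in WT and of -0.23 to 0.18 in Pxr-/- with each array left out, with 0.09 and 0.64 reached without WT PCN 3 and without WT PCN 2. For single genes, 95 of 1521 values changed sign, all of differences that were not called. Of these, 34 were of PCN in Pxr-/-, 26 of the interaction, 19 of PCN in WT, 14 of genotype under PCN and 2 of genotype without PCN, namely Gbp2 at 0.02 without Pxr-/- CONT 5 and Iigp1 at -0.01 with the slide as a fixed block.

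The deviations of same-numbered arrays of different groups correlated at -0.33 to 0.49, with r over 0.1 in 11 of 22 pairs. Arrays with different numbers were not compared, so this does not tell whether the numbers pair the samples. The main model treats the arrays as unpaired. With the replicate block the medians were 0.78, 0.27, 0.32, -0.09 and -0.59 for the 5 comparisons in the order given in the report, with 0 genes called.

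The main limits are the groups of 4 or 5 arrays with a wide spread of these genes within each, the near-identical arrays under different labels, and the purchase of WT mice against in-house breeding of Pxr-/- mice. The arrays left out were chosen from the data. Signal over background was not a limit for the 9 genes, and was for Ifng.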
